A study of Mus musculus with 4 samples.

Results

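Zscan4a, Zscan4b, Zscan4c, Zscan4d, Zscan4e and Zscan4f make up the Zscan4 cluster, 6 of the 55418 genes in the deposited count table, chosen by their symbols and taken copy by copy and summed. Their RNA was counted in 4 libraries of E14 ESCs, a mouse line grown on gelatin in serum with LIF. WT holds 2 cultures. Pim3-/- holds 2 clones of the same line in which a pair of sgRNAs with Cas9 cut the Pim3 gene in its exons, 1 library per clone, and the paper does not say which replicate number is which clone. The strain label of all 4 libraries is 12910la, and the line, medium and mRNA kit were shared by both groups. Genotype and the single cultures and clones cannot be told apart.

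Zscan4 genes encode proteins with a SCAN domain, through which such proteins pair, and C2H2 zinc fingers, which bind DNA. They are transcribed in a burst in the mouse 2-cell (2C) embryo and in a small, changing fraction of cultured ESCs, where they accompany telomere lengthening by recombination and a passing loss of DNA methylation. Zscan4c is known as the main copy of ESCs and Zscan4d as the main copy of the 2C embryo. DUX, the factor that starts the 2C programme, activates the cluster together with the endogenous retrovirus MERVL.

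In the annotation of GRCm38 the 6 copies lay on chromosome 7, from 10794242 (the start of Zscan4a) to 11402318 (the end of Zscan4f), a span of 608077 bases. Zscan4c (chr7:11005745-11010547) and Zscan4f (chr7:11397915-11402318) were on the plus strand. Zscan4a (chr7:10794242-10799057), Zscan4b (chr7:10900740-10905050), Zscan4d (chr7:11161374-11166159) and Zscan4e (chr7:11306378-11310682) were on the minus strand. GENCODE classes Zscan4a as an unprocessed pseudogene and the other 5 as protein coding, with 506 annotated codons in Zscan4c, Zscan4d and Zscan4f and 505 in Zscan4b and Zscan4e. RefSeq classes Zscan4e as a pseudogene too. A further 3 rows of the table, Zscan4-ps1, Zscan4-ps2 and Zscan4-ps3, are pseudogenes in RefSeq and protein coding in GENCODE. They are not members and are given apart.

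The copies differed at few bases, which bears on every value per copy. Of 1515 aligned coding positions, 72 varied among the 6 members. Over the 15 pairs the coding identity had a median of 97.7%, from 96.6% for Zscan4b and Zscan4d (51 differing bases) to 99.7% for Zscan4b and Zscan4e (4 differing bases). The stretch of 60 coding bases with the most positions that vary among the 6 members, 9 in all, is shown. It lies in exon 4 of 4, at chr7:11009072-11009131 of Zscan4c on the plus strand, and the other copies are shown at the aligned place on the coding strand, 5′ to 3′. Capitals mark bases that differ from Zscan4c.
Zscan4a: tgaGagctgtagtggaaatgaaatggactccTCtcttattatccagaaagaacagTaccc
Zscan4b: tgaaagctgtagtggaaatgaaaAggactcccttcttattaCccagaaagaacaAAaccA
Zscan4c: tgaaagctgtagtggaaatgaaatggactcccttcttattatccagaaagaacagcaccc
Zscan4d: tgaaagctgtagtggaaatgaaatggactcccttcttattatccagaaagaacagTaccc
Zscan4e: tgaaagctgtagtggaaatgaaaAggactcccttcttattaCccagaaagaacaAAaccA
Zscan4f: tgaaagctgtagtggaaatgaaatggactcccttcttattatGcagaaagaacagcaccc
Zscan4b and Zscan4e read alike here, each with 5 differences from Zscan4c, and Zscan4d and Zscan4f differ from it at 1 base each. In the transcripts as a whole, 70.4% of the 100-base words of Zscan4d and 60.9% of those of Zscan4a occurred in no other gene. For Zscan4c, Zscan4b, Zscan4f and Zscan4e the shares were 27.2%, 23.7%, 19.4% and 18.5%. How reads that match several copies were counted is not given in the sources used here, so values per copy are uncertain. The sum over the copies does not depend on how reads were divided among the 6. It does depend on whether shared reads were dropped or counted more than once, and on their division with the Zscan4 rows outside the sum. Zscan4f and Zscan4-ps2, for example, differ at 4 coding bases.

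The sequences before the transcription starts were alike too. RefSeq promoters were at hand for Zscan4b, Zscan4c, Zscan4d and Zscan4f, 4 of the 6 copies, and over their windows of 250 bases before to 50 after the start the pairwise identity ran from 95.3% (Zscan4b and Zscan4c) to 99.3% (Zscan4c and Zscan4f). The 250 bases before each RefSeq start are shown, because members that moved together can be compared there. They are read on the strand of the gene, at chr7:10905051-10905300 (minus), chr7:11005495-11005744 (plus), chr7:11166149-11166398 (minus) and chr7:11397665-11397914 (plus) of GRCm38.p6. Capitals mark the letters TATAAA.
Zscan4b: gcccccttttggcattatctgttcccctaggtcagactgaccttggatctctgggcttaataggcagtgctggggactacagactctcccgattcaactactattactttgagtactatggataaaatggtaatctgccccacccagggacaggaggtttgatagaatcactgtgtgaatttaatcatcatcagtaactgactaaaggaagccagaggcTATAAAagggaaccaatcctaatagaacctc
Zscan4c: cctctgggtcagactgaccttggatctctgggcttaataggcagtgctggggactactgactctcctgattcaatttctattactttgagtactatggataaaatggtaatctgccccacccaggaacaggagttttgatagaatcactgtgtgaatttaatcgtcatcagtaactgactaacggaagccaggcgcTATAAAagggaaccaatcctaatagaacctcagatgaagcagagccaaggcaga
Zscan4d: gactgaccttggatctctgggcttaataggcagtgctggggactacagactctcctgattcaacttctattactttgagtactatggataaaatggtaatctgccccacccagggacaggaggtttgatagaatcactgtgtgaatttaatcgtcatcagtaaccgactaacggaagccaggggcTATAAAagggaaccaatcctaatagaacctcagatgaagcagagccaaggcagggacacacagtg
Zscan4f: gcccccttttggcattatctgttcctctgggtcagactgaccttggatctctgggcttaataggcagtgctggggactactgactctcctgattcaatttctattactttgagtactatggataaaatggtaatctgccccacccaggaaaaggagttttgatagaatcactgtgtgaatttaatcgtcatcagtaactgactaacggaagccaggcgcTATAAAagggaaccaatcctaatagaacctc
Each of the 4 held TATAAA once on the strand of the gene, and none on the other strand. It began 31 bases before the start in Zscan4b and Zscan4f, 54 in Zscan4c and 65 in Zscan4d, so the annotated starts stand at different distances from the same letters. Of 32851 RefSeq promoter windows, 13.6% held TATAAA on either strand and 8.32% on the strand of the gene. The letters TGCACAC, a motif bound by ZSCAN4 itself (4.40% of windows), and GATTNAATC, the inner letters of the DUX motif (0.268% of windows), were searched on both strands and were absent from all 4 windows. This says only that these letters are not in these windows.

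In the libraries labelled Pim3-/-, all 6 copies of Zscan4 were upregulated. Every copy was higher in both Pim3-/- libraries than in both WT libraries. The share of all tested genes that were so was not counted, so this is not read as particular to the copies. Of all tested genes, 9783 had a log2 fold change above 0 and 8661 had one below. Since near-identical copies may share reads, the 6 copies are not separate observations. Their log2 fold changes ran from 2.45 to 3.92, with a median of 3.33, against a median of 0.07 over the 18444 genes tested. All 6 passed an adjusted p of 0.05 in the quasi-likelihood test of edgeR (Benjamini-Hochberg over all tested genes), where 17.6% of the tested genes were called higher and 16.2% lower. All 6 were also called with at least a 3-fold increase, where 8.47% of the tested genes were. Each copy stayed called without either WT library, with log2 fold changes from 2.24 to 4.47. They were 1.52 to 2.85 without Pim3-/- replicate 1 and 2.86 to 4.50 without replicate 2, where calls are not comparable. When library totals replaced the TMM factors, the split of calls over all genes changed from 3246 higher and 2987 lower to 6594 higher and 1094 lower, and the median of all genes from 0.07 to 0.52. The summed copies stood 3.03 above that median on the log2 scale with TMM factors and 3.02 above it with library totals.

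Summed over the 6 copies, the WT libraries held 201 and 272 counts and the Pim3-/- libraries 3957 and 1143. In CPM (counts per 1e6 counts of the gene table after TMM scaling) the sum was 10.5 and 12.0 in WT and 148 and 44.3 in Pim3-/-. The Poisson intervals (95%, counting error only) were 9.08 to 12.0 and 10.6 to 13.5 for WT replicates 1 and 2. For Pim3-/- replicates 1 and 2 they were 143 to 153 and 41.8 to 46.9. The intervals of the WT libraries overlapped, whereas the Pim3-/- libraries stood 3.34-fold apart, beyond counting error. The group values were 11.2 CPM ± 1.07 (SD, n = 2) in WT and 96.2 CPM ± 73.4 (SD, n = 2) in Pim3-/-, a log2 change of 3.10 ± 0.51 (SE), or 8.55-fold. Set against the WT mean, Pim3-/- replicate 1 was 13.2-fold higher and replicate 2 was 3.94-fold higher. Without Pim3-/- replicate 1 the log2 fold change of the sum was 1.96, and without replicate 2 it was 3.70. No p is given for the sum. RNA from whole cultures does not tell apart more cells with Zscan4 transcripts from more transcripts per cell.

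**Figure D1:**
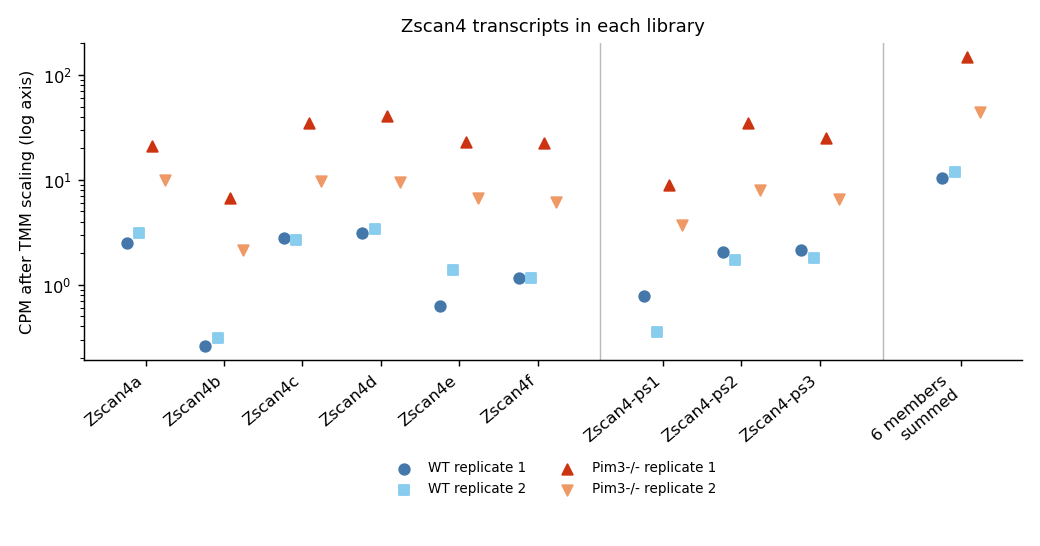
CPM of each Zscan4 row and of the 6 members summed, on a log axis, with 1 point per library (blue WT, red and orange Pim3-/-). In each column both Pim3-/- points lie above both WT points, and replicate 1 lies above replicate 2, at 148 against 44.3 CPM for the sum. The share of all tested genes with both Pim3-/- values above both WT values was not counted.

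Zscan4c, known as the main copy of ESCs, had 54 and 60 counts in WT, against 926 and 249 in Pim3-/-. This is 2.82 and 2.65 CPM against 34.7 and 9.65 CPM. In WT, Zscan4d had somewhat more counts (60 and 77), but the 95% intervals of their shares in the sum overlapped in both libraries. Of the 100-base words, 27.2% of those of Zscan4c and 70.4% of those of Zscan4d occur in no other gene. The part of read assignment in the order of these copies was not tested. The WT libraries were close to each other, and the lower Pim3-/- library was still 3.43-fold above the higher WT library. Its log2 fold change was 3.02 ± 0.56 (SE; edgeR, adjusted p = 0.00892).

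Zscan4d, the copy known from the 2C embryo, had 60 and 77 counts in WT, against 1081 and 245 in Pim3-/-, or 3.13 and 3.40 CPM against 40.5 and 9.49 CPM. It had the highest count of the 6 in Pim3-/- replicate 1, and its Pim3-/- libraries were 4.26-fold apart, the widest gap among the members. Its log2 fold change was 2.93 ± 0.61 (SE; edgeR, adjusted p = 0.0122).

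Zscan4f, which has 506 annotated codons as Zscan4c and Zscan4d do, had 22 and 26 counts in WT, against 598 and 160 in Pim3-/-. In CPM this was 1.15 in each WT library and 22.4 and 6.20 in the Pim3-/- libraries. The lower of these was 5.40-fold above WT, and the log2 fold change was 3.63 ± 0.61 (SE; edgeR, adjusted p = 0.00688). Zscan4f and Zscan4c differ at 6 coding bases, so a short read could belong to either.

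Zscan4b and Zscan4e, the pair with the most similar coding sequence, had the lowest mean CPM in WT and had the largest fold changes. Zscan4b had 5 and 7 counts in WT, against 179 and 55 in Pim3-/-, or 0.261 and 0.309 CPM against 6.70 and 2.13 CPM. A count of 3, the upper limit of what a count of 0 allows, equals 0.157 and 0.132 CPM in the WT libraries, so WT Zscan4b stood just above that limit. Zscan4e had 12 and 31 counts in WT, against 615 and 175 in Pim3-/-, or 0.626 and 1.37 CPM against 23.0 and 6.78 CPM. Its WT libraries were 2.18-fold apart, the widest gap in WT among the members. The log2 fold changes were 3.92 ± 0.67 for Zscan4b (SE; edgeR, adjusted p = 0.00717) and 3.87 ± 0.65 for Zscan4e (SE; edgeR, adjusted p = 0.00681).

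Zscan4a, the copy GENCODE classes as a pseudogene, had 48 and 71 counts in WT, against 558 and 259 in Pim3-/-, or 2.50 and 3.13 CPM against 20.9 and 10.0 CPM. It was 1 of the higher copies in WT and had the smallest fold change of the 6, with a log2 change of 2.45 ± 0.39 (SE; edgeR, adjusted p = 0.00586). The Pim3-/- libraries were 2.08-fold apart, the narrowest gap among the members. Differences between the copies' fold changes were not tested, and their standard errors overlap in part.

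The 3 Zscan4 rows outside the rule moved the same way. Zscan4-ps1 had 15 and 8 counts in WT, against 238 and 95 in Pim3-/-. Zscan4-ps2 had 39 counts in each WT library, against 936 and 205 in Pim3-/-. Its count was close to that of Zscan4c (926) in Pim3-/- replicate 1 and below it in the other libraries. Zscan4-ps3 had 41 counts in each WT library, against 674 and 168 in Pim3-/-. Their log2 fold changes were 3.48, 3.52 and 3.01, with adjusted p of 0.00672, 0.00905 and 0.0110 from edgeR. The 6 members held 69.0% of the counts of all 9 rows, and the sum over 9 rows gave a log2 change of 3.16 ± 0.52 (SE).

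In every one of the 9 rows Pim3-/- replicate 1 was above replicate 2. Among the members the ratio ran from 2.08 (Zscan4a) to 4.26 (Zscan4d), while WT replicate 2 over replicate 1 ran from 0.940 (Zscan4c) to 2.18 (Zscan4e). Few genes leaned as far towards Pim3-/- replicate 1. Of all tested genes, 0.331% had a ratio at least as high as that of Zscan4d and 3.99% at least as high as that of Zscan4a (0.1 CPM added to each value). Other parts of the 2C programme were also higher in replicate 1. Duxf3, the row of the activator DUX, had 81 counts in replicate 1 and 37 in replicate 2, a CPM ratio of 2.11, next to that of Zscan4a. Of MERVL, the internal part (MERVL-int) and the long terminal repeat (MT2_Mm) had ratios of 1.48 and 1.98 after scaling within the deposited TE table. Because the labels do not tie replicate numbers to clones, the ratio is one between libraries.

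The levels of the copies were next compared per length. In CPM per kb of exon, the WT levels were 1.44 ± 0.083 for Zscan4d, 1.24 ± 0.195 for Zscan4a and 1.20 ± 0.053 for Zscan4c (SD, n = 2 each). Zscan4f followed with 0.586 and 0.585 in the single libraries, then Zscan4e with 0.556 ± 0.292 and Zscan4b with 0.158 ± 0.019 (SD, n = 2 each). The libraries of Zscan4a and Zscan4c overlapped, as did those of Zscan4e and Zscan4f, and Zscan4b was below all others. In Pim3-/- the levels were 11.0 ± 9.64 for Zscan4d, 9.73 ± 7.77 for Zscan4c and 8.31 ± 6.40 for Zscan4e, then 7.29 ± 5.84 for Zscan4f, 6.78 ± 3.37 for Zscan4a and 2.45 ± 1.79 for Zscan4b (SD, n = 2 each). These SDs hold the gap between the Pim3-/- libraries that all copies share, so the copies were compared within each library. Zscan4c was above Zscan4e, and Zscan4e above Zscan4f, in both Pim3-/- libraries. The order of Zscan4d and Zscan4c, and that of Zscan4f and Zscan4a, differed between them. Zscan4b was lower than Zscan4a in both. Within replicate 1 the order was the same, with Zscan4d at 17.8 and Zscan4a at 9.16 CPM per kb. Within replicate 2, Zscan4a was highest at 4.40, ahead of Zscan4c at 4.24 and Zscan4d at 4.18 CPM per kb. Zscan4b was lowest in all 4 libraries.

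The place of the copies among all genes was described by their level per kb. Of 18392 tested genes with a known length, between 8.53% (Zscan4b) and 35.1% (Zscan4d) had a lower level per kb than a member in WT replicate 1, and between 9.37% and 36.03% in WT replicate 2. In Pim3-/- replicate 1 these shares were 51.7% (Zscan4b) to 84.0% (Zscan4d). In replicate 2 they were 27.8% (Zscan4b) to 55.6% (Zscan4a).

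The share of each copy in the summed counts was compared with exact Clopper-Pearson intervals (95%, counting error only). Zscan4c held 26.9% and 22.1% of the sum in WT and 23.4% and 21.8% in Pim3-/-, with intervals that all overlapped. Zscan4d held 29.9% and 28.3% in WT, 27.3% in Pim3-/- replicate 1 (25.9 to 28.7) and 21.4% in replicate 2 (19.1 to 23.9). Zscan4a held 23.9% (18.2 to 30.4) and 26.1% (20.99 to 31.8) in WT and 22.7% (20.3 to 25.2) in Pim3-/- replicate 2. In Pim3-/- replicate 1 it held 14.1% (13.0 to 15.2), below the intervals of the other 3 libraries.

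Zscan4e held a larger share of the sum in Pim3-/-, 15.5% (14.4 to 16.7) and 15.3% (13.3 to 17.5), against 5.97% (3.12 to 10.2) in WT replicate 1. WT replicate 2, at 11.4% (7.88 to 15.8), overlapped with both. Zscan4f held 10.9% (6.99 to 16.1) and 9.56% (6.34 to 13.7) in WT and 15.1% (14.01 to 16.3) and 14.0% (12.04 to 16.15) in Pim3-/-. The intervals of WT replicate 2 and Pim3-/- replicate 1 did not overlap, and the other intervals of the groups did. Zscan4b held 2.49% and 2.57% in WT and 4.52% and 4.81% in Pim3-/-, with overlapping intervals. The point estimates of Zscan4b, Zscan4e and Zscan4f were thus higher in both Pim3-/- libraries, and no test between the groups was made.

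**Figure D2:**
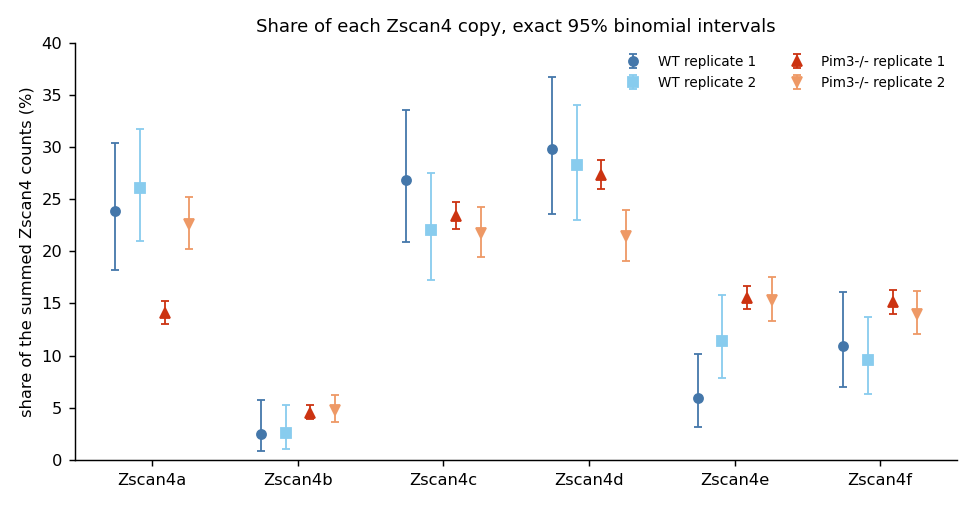
Share of each copy in the summed counts of the 6 Zscan4 copies (%), 1 point per library with its exact 95% binomial interval. The share of Zscan4a in Pim3-/- replicate 1 (14.1%) stands below its other 3 values, and Zscan4e, Zscan4f and Zscan4b have their higher shares in the Pim3-/- libraries.

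The 3 copies with the smallest shares of words found in no other gene, Zscan4e, Zscan4f and Zscan4b, were also the 3 members with the largest log2 fold changes. Zscan4d and Zscan4a, with the largest shares, had the smallest fold changes, and Zscan4c lay between on both measures. Zscan4-ps1 does not follow this order, with the largest share of the 9 rows (76.6%) and a log2 change of 3.48. The part of read assignment in the differences between copies was not tested. Divided by the number of word positions found in no other gene, the mean Pim3-/- levels were 45.8 CPM per kb for Zscan4e, 38.3 for Zscan4f and 37.4 for Zscan4c, then 16.3 for Zscan4d, 11.7 for Zscan4a and 10.6 for Zscan4b, so the order of the copies by level depends on the length used.

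**Figure D3:**
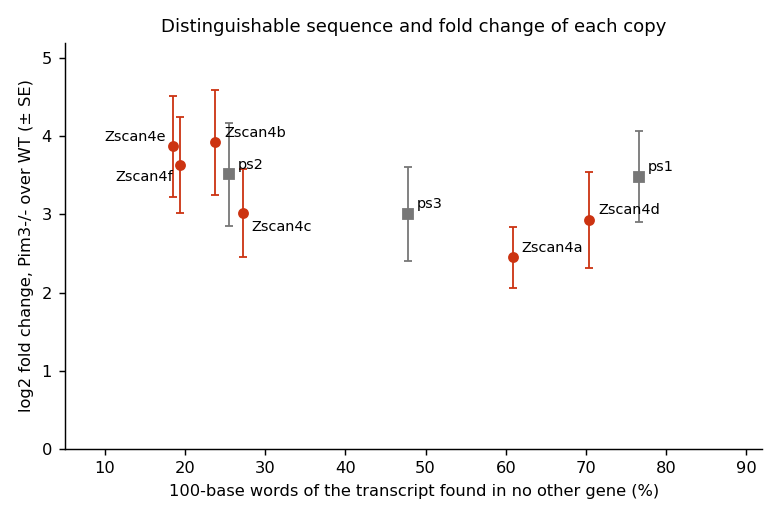
Log2 fold change of each Zscan4 row (Pim3-/- over WT, bars are standard errors) against the share of its 100-base words that no other gene holds (%), members in red and the 3 other rows in grey. Zscan4e, Zscan4f and Zscan4b lie at 18.5% to 23.7% with the highest values, and Zscan4-ps1 at 76.6% lies nearly as high.

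Next, the genes around the cluster were examined. Within 500 kb outside the outermost members or between them, the annotation holds 81 further genes, of which 66 are pseudogenes and 16 are vomeronasal receptor genes of the Vmn1r family (the groups overlap). Of the 81, 66 had no count in any library, and no neighbour exceeded 98 counts in a library. The cluster thus lay in a region otherwise nearly without counts in all 4 libraries. The nearest gene on either side, Gm45438 before Zscan4a and Gm18639 after Zscan4f, had 0 counts in all 4 libraries, which allows up to 3 counts in each.

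Only 3 neighbours had enough counts to be tested, and 2 of them were called higher, where 17.6% of all tested genes were. Gm18204, a processed pseudogene beside Zscan4d, had 5 and 4 counts in WT, against 43 and 13 in Pim3-/-, a log2 change of 2.26 ± 0.73 (SE; edgeR, adjusted p = 0.0475). With the size factors of DESeq2 its adjusted p was 0.0508, so this call depends on the scaling. Gm45551, an unprocessed pseudogene between Zscan4f and Zscan4-ps2, had 4 and 0 counts in WT, against 52 and 19 in Pim3-/-, with a log2 change of 3.72 ± 0.99 (SE; edgeR, adjusted p = 0.0255). It is the 1 gene of the annotation outside the 9 Zscan4 rows that shares 100-base words with them, so reads of the 2 cannot be told apart there. Without WT replicate 2, neither was called (adjusted p = 0.270 for Gm18204 and 0.138 for Gm45551). Zik1, a zinc finger gene 307 kb before Zscan4a, had 30 and 43 counts in WT, against 44 and 98 in Pim3-/-, and did not pass the test (adjusted p = 0.311 from edgeR).

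**Figure D4:**
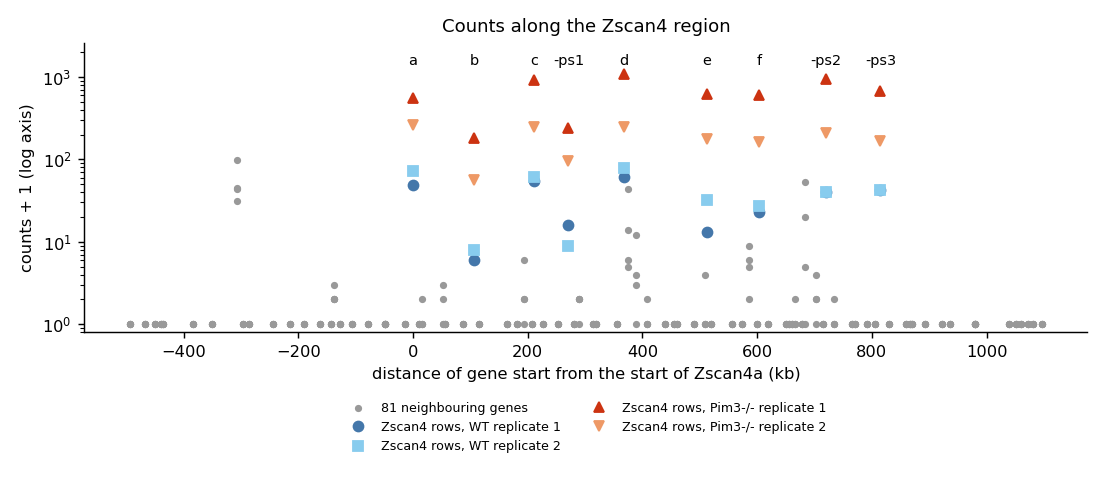
Counts plus 1 (log axis) of the 9 Zscan4 rows (coloured, 1 symbol per library) and of the 81 neighbouring genes (grey) by distance of their start from the start of Zscan4a (kb). The Zscan4 rows stand out of a region in which 66 neighbours had no count.

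Genes known to act on Zscan4 did not move in one direction. Among the activators, Duxf3, Dppa2, Dppa4, Nelfa, Tbx3 and Trp53, 2 were upregulated and 2 downregulated, where 17.6% of all tested genes were called higher and 16.2% lower. Library totals called 3 higher and 1 lower. The median log2 fold change of the list was 0.15. Duxf3, at 3 and 5 counts in WT, against 81 and 37 in Pim3-/-, had a log2 change of 3.52 ± 0.61 (SE; edgeR, adjusted p = 0.00742), within the range of the Zscan4 copies. It belongs to a repeated family, which makes its count uncertain. Tbx3, a T-box factor known to raise Zscan4 through lower Dnmt3b, had 106 and 114 CPM in WT and 297 and 331 CPM in Pim3-/- (log2 fold change 1.51, adjusted p = 0.00369 from edgeR). Dppa4, which with Dppa2 acts upstream of Dux, was lower in Pim3-/-, at 249 and 238 CPM in WT and 114 and 95.01 CPM in Pim3-/- (log2 fold change -1.22, adjusted p = 0.00531 from edgeR). Trp53, the p53 gene, which can activate Dux after DNA damage, had 332 and 329 CPM in WT and 234 and 160 CPM in Pim3-/- (log2 fold change -0.75, adjusted p = 0.0377 from edgeR). Its call was lost with library totals (adjusted p = 0.308). Without WT replicate 1, no activator was called, and Duxf3 had an adjusted p of 0.0576.

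Of 18 tested repressors of Zscan4 and of the 2C programme, 5 were downregulated and 1 was upregulated, where 16.2% and 17.6% of all tested genes were. The median log2 fold change was -0.28. This split turned with the scaling, since library totals called 2 repressors lower and 5 higher. The de novo DNA methyltransferase Dnmt3b fell from 128 and 157 CPM in WT to 66.7 and 49.3 CPM in Pim3-/- (log2 fold change -1.30, adjusted p = 0.00636 from edgeR). Sumo2, the modifier used in SUMO-dependent silencing, fell from 503 and 488 CPM to 228 and 199 CPM (log2 fold change -1.21, adjusted p = 0.00562 from edgeR). Ncl, the nucleolin gene, which with LINE1 RNA holds Dux silent, had a log2 change of -0.93 (adjusted p = 0.0139 from edgeR). Chaf1b, a subunit of the chromatin assembly factor CAF-1, had -0.92 (adjusted p = 0.00945 from edgeR), while its partner Chaf1a had -0.03 and did not pass the test. Ehmt2, the H3K9 methyltransferase G9a, had -0.67 (adjusted p = 0.0243 from edgeR). Ep400, the ATPase of the TIP60-p400 complex, was the 1 called higher, at 0.51 (adjusted p = 0.0433 from edgeR), and its call was lost in 4 of the alternative analyses with all 4 libraries. With library totals, the calls of Ncl, Chaf1b and Ehmt2 were lost and their fold changes stayed negative. Without WT replicate 1, only 1 repressor was called lower, and without WT replicate 2 only 2 were. Rif1 and Smchd1, known repressors of the cluster, did not pass the test, with log2 fold changes of -0.19 and 0.42.

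Of the genes that share Zscan4's known roles in telomere upkeep, meiotic recombination and DNA methylation upkeep, 13 of 14 were tested, 1 was downregulated and none was upregulated in the test by edgeR, where 16.2% and 17.6% of all tested genes were. Library totals called 1 lower and 2 higher. With an unadjusted p under 0.05, 1 was higher and 2 were lower, and the DESeq2 test called 0 higher and 2 lower. The median log2 fold change was -0.07. Terf1, which encodes the telomere-binding shelterin subunit TRF1, had 62.2 and 79.2 CPM in WT and 33.1 and 33.9 CPM in Pim3-/- (log2 fold change -1.08, adjusted p = 0.00683 from edgeR). Without WT replicate 2, its adjusted p was 0.0671. The other shelterin genes (Terf2, Terf2ip, Tinf2, Acd, Pot1a and Pot1b) and Tert, the telomerase protein, did not pass the test. Nor did the recombination genes Dmc1, Smc1b and Blm. Uhrf1 and Dnmt1, whose proteins ZSCAN4 is known to lower in ESCs, had log2 fold changes of -0.32 and -0.07 and did not pass the test. Spo11, which makes meiotic breaks, had 0 counts in WT, against 1 and 2 in Pim3-/- and was too low to test.

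Other genes with a SCAN domain were examined next. Of 23 rows named Zscan or Zkscan, 22 were tested, 5 were upregulated and 1 downregulated, with a median log2 fold change of 0.39. Of all tested genes 17.6% were called higher and 16.2% lower, so the count higher is near the background. Library totals called 11 of these genes higher and 0 lower. Zkscan2 had the largest change among them, from 1.93 and 1.59 CPM in WT to 7.56 and 8.06 CPM in Pim3-/- (log2 fold change 2.15, adjusted p = 0.00467 from edgeR), below that of every Zscan4 copy. Zkscan7, Zscan22, Zscan26 and Zkscan17 rose by 1.22, 1.05, 0.86 and 0.72 on the log2 scale (adjusted p from 0.0148 to 0.0456 from edgeR). Zscan26 was not called with the size factors of DESeq2 (adjusted p = 0.0505). Zscan21 fell by 0.64 (adjusted p = 0.0281 from edgeR), a call lost with library totals (adjusted p = 0.436). Without either WT replicate 1 or WT replicate 2, Zkscan2 was the 1 SCAN gene called higher and none was called lower. Zscan10, a SCAN gene of the pluripotency network, had 73.8 and 77.9 CPM in WT and 78.7 and 80.1 CPM in Pim3-/-.

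**Figure D5:**
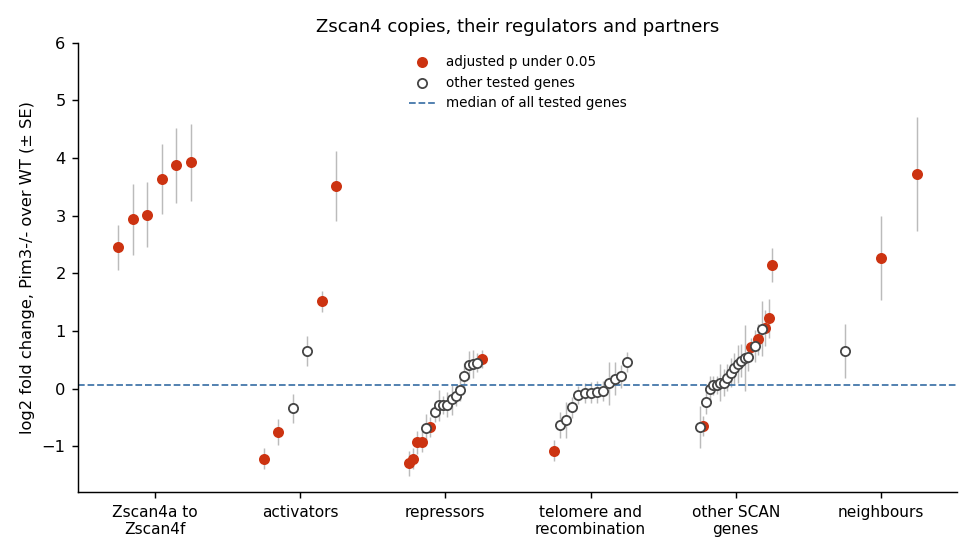
Log2 fold change (Pim3-/- over WT) of each tested gene in the 6 groups, ordered within a group, with standard errors as bars, calls at an adjusted p under 0.05 in red and the median of all tested genes (0.07) as a dashed line. The Zscan4 copies lie between 2.45 and 3.92, and Duxf3, Zkscan2, Gm18204 and Gm45551 are the genes of the other groups above 2.

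The genes whose values across the 4 libraries were most like the summed copies were sought by Euclidean distance between centred log2 CPM (prior count 2), among 17918 tested genes with at least 10 counts in both Pim3-/- libraries. This is a likeness over 4 points only, set by the contrast and by the gap between the Pim3-/- libraries. The 10 nearest were Bgn, Gm43352, Usp17le, Gm5580, Gm6494, Gm8994, Zscan4-ps3, Duox2, Mir8109 and Gm12800, with distances from 0.18 to 0.43 log2 units against a median of 3.07. Bgn (biglycan, a matrix proteoglycan) had 5 and 7 counts in WT, against 109 and 35 in Pim3-/-. Usp17le, a gene of the Usp17 family of deubiquitinases, had 37 and 49 counts in WT, against 689 and 249 in Pim3-/-. The gene model Gm8994 was the most abundant of the 10, with 112 and 142 counts in WT, against 1660 and 610 in Pim3-/-. Gm5580 had 52 and 70 counts in WT, against 839 and 253 in Pim3-/-, nearly the values of Zscan4c. Duox2, an enzyme that makes hydrogen peroxide, had 1 count in each WT library and 34 and 12 in Pim3-/-. The remaining 4 non-Zscan4 rows had 3 to 8 counts in WT and 23 to 146 in Pim3-/-.

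The libraries differed in more than the cluster. They held 22029427 to 25668307 gene counts, with TMM factors of 0.828 and 0.883 in WT and 1.17 in both Pim3-/- libraries. Pim3 had 4392 and 4953 counts in WT, against 4970 and 4804 in Pim3-/-, and a count over the whole gene does not test labels where guides cut within a few exons. The 6 ESC markers (Pou5f1, Sox2, Nanog, Zfp42, Esrrb and Utf1) were present in every library. Their summed level was 5126 and 4973 CPM in WT and 3320 and 2874 CPM in Pim3-/-. Of the 6, 3 were called lower, where 16.2% of all tested genes were. They were Pou5f1, Nanog and Utf1, with log2 fold changes of -1.12, -0.90 and -0.97 (adjusted p of 0.00993, 0.0155 and 0.0209 from edgeR). Sox2, Zfp42 and Esrrb did not pass the test. After Pim3 deletion, the paper reports Nanog higher, by qPCR and with a western blot of its protein, and Oct4 (Pou5f1) undisturbed by qPCR. It also reports Nanog higher by qPCR after Pim3 shRNA and after the PIM3 inhibitor M-110. All 4 primitive endoderm markers (Gata4, Gata6, Sox17 and Dab2) were called higher, where 17.6% of all tested genes were. Their sum was 1.98 and 3.75 CPM in WT and 26.2 and 13.2 CPM in Pim3-/-, with replicate 1 above replicate 2 as for Zscan4. Sox17 had 85 counts in Pim3-/- replicate 1 and 10 in replicate 2. Of the 4 trophoblast markers, 2 were tested and both, Eomes and Ascl2, were called higher. Cdx2 and Elf5 were too low to test, with no more than 12 counts in any library. The summed level of the 4 was 9.70 and 9.39 CPM in WT against 30.5 and 35.0 CPM in Pim3-/-. The 4 fibroblast markers summed to 1.81 to 1.82 CPM in WT and 6.44 and 2.13 CPM in Pim3-/-, with Col3a1 at 0 counts in 3 libraries. The part of these differences in the Zscan4 levels was not tested.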

How the data were processed

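For 2 WT and 2 Pim3-/- libraries, raw counts of genes and of transposable element (TE) subfamilies were deposited. Per the labels (processing notes of the submitters) Trim Galore, STAR and featureCounts were used with GRCm38, whereas the paper's methods name Cutadapt and Hisat2 with mm10, Ensembl genes and RepeatMasker TEs. Versions, the treatment of multi-mapping reads and strand use are not given in the sources used here. With 2 libraries per group, p-values rest on the spread between libraries within groups, pooled over WT cultures and Pim3-/- clones. In edgeR they also rest on a spread shared over all genes (5.64 prior against 2 residual degrees of freedom in the main fit).

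Counts were used as deposited. Genes were filtered by filterByExpr (minimum count 10, minimum total 15), leaving 18444 of the 31418 genes with a count, scaled by TMM factors and compared with edgeR 4.0.16 (quasi-likelihood, R 4.3.3), with Benjamini-Hochberg adjustment over all of them. Standard errors were taken as the log2 fold change over the root of F. For the sum, the 6 rows were replaced by their total and the table refitted. Lengths, coordinates and exonic words came from GENCODE M21 (GRCm38), promoters from RefSeq, and alignments from MAFFT 7.526. Words were read on both strands against all annotated transcripts. Protein sequences were not used here. The DUX motif was searched by its inner letters. Of the TE table only MERVL-int and MT2_Mm were used. The test was also run on counts simulated with means and dispersions taken from these data. Figures were drawn with matplotlib 3.10.9 in Python 3.11.15.

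The members, the lists of regulators, partners and markers and the comparisons were chosen with earlier results of these data known. Named are the 6 members, the listed genes past an adjusted p of 0.05 (at most 8 per list, 5 for SCAN genes and neighbours), the nearest neighbours, the 10 nearest profiles and Pim3. Genes named beyond this rule (Zscan21, Zik1, Zscan10, Rif1, Smchd1, Chaf1a, Spo11, Uhrf1, Dnmt1 and further members of the lists without a call) were chosen after their values were seen. An exact permutation test of 2 against 2 libraries cannot go below 0.333, so none is given. Alternatives were the size factors of DESeq2, library totals, a replicate block, the DESeq2 1.42.0 Wald test, no filter, a filter on 10 counts per library, each library left out, other word and length measures and, chosen after seeing the data, the sum of all 9 rows.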

Additional observations from a re-analysis of the deposited data

How the results depend on the processing

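All 6 Zscan4 copies kept their direction and their call in each alternative with both Pim3-/- libraries in which they could be tested, 47 fits in all, with log2 fold changes from 2.24 to 4.47 and adjusted p up to 0.0436. Without a Pim3-/- library the log2 fold changes were 1.52 to 4.50. Zscan4b was left out by the filter on 10 counts in every library. The number of copies called was 6, or 5 there. The log2 fold change of the sum was 1.96 to 3.70 with 1 library left out, and without Pim3-/- replicate 1 it moved to 1.96. It was 2.85 with the replicate block, 3.54 with library totals and 3.16 over 9 rows. Replicate numbers did not pair the libraries (correlation of deviations 0.0196), and the block changed no call of a Zscan4 copy. With 1 library left out, the lone library is assumed to vary like the other group. Without a Pim3-/- library the spread of all genes was set to 1 trend, so that calls there are not comparable.

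Over all genes, library totals gave 6594 higher and 1094 lower calls, and at 3-fold 2757 and 76, against 768 and 142 with at least 10 counts in every library. With 1 library left out, the calls ranged from 402 to 5393 (higher) and 373 to 5255 (lower), and at 3-fold from 384 to 1941 and 136 to 695. Library totals called 1 activator lower, 5 repressors higher and 2 lower, 2 partners higher, and 11 SCAN genes higher and 0 lower. With at least 10 counts in every library, 1 activator was called higher and 1 lower, 2 repressors and 1 partner higher, and 0 neighbours. The size factors of DESeq2, and its Wald test, called 0 repressors higher and 1 neighbour higher. The Wald test and the replicate block called 2 partners lower. No filter, and the block, called 0 repressors higher. With 1 library left out, calls ranged from 0 to 3 activators higher and 0 to 3 lower, 0 to 4 repressors higher and 1 to 9 lower, 0 to 3 partners higher and 0 to 4 lower, 1 to 9 SCAN genes higher and 0 to 2 lower, and 0 to 2 neighbours higher. Each range with 1 library left out joins fits without a WT library and fits without a Pim3-/- library. The upper ends come from the fits without a Pim3-/- library, where calls are not comparable. Apart from fewer genes tested under the stricter filter, the cause of these shifts was not tested.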
